A study of Homo sapiens with 33 samples.

Results

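The changes that cetuximab brought to each of 3 head and neck squamous cell carcinoma (HNSCC) cell lines, in the same direction, were examined over 30 of the 33 bulk RNA-seq libraries of the series. These were all 15 cetuximab (CTX) and all 15 PBS libraries of days 1 to 5 of SCC1, SCC6 and SCC25, with 5 libraries per line and treatment. Treated cells received 100 nM cetuximab every day and untreated controls received PBS, from the day after plating. The 3 PBS libraries of day 0 have no treated counterpart and entered only an alternative fit. SCC1 (UM-SCC-1), SCC6 (UM-SCC-6) and SCC25 are established HNSCC cell lines, sequenced with 1 library per line, treatment and day. Per the labels, SCC25 and SCC1 media held hydrocortisone and SCC6 medium held non-essential amino acids, so line and medium cannot be told apart. The labels of treated SCC6 give day 2 for 2 libraries, called 2a and 2b here, and day 1 for none. The 5 days of a line stood in for replicates, and p-values measure only the spread between these libraries.

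Cetuximab is a monoclonal antibody that binds the extracellular part of EGFR, the epidermal growth factor receptor, and keeps its ligands from binding. Ligand-bound EGFR signals through RAS, RAF, MEK and ERK, and active ERK raises immediate early transcription factors such as EGR1, the AP-1 subunit FOSL1, and feedback inhibitors of its own pathway, the DUSP phosphatases and Sprouty proteins. In squamous epithelium several EGFR ligands are themselves products of this pathway, and the pathway drives growth, ribosome production and cell migration.

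The stretches that lie upstream of the start sites of 8 genes changed in all lines are shown first, so that the results can be read against them. They come from RefSeq, build GRCh38.p14, cover the 250 bases before each start, and are written 5′ to 3′ on the strand of the gene. Capitals mark matches on either strand to letters searched, which were the AP-1 letters TGANTCA, the ETS letters CCGGAAG, the E-box CACGTG, the TFAP2 letters GCCNNNGGC, and the CArG box, the element bound by serum response factor. A match describes the letters only. EGR1, the deepest fall, lies next to chr5:138465229-138465478 (+ strand) and held 2 CArG boxes.
EGR1: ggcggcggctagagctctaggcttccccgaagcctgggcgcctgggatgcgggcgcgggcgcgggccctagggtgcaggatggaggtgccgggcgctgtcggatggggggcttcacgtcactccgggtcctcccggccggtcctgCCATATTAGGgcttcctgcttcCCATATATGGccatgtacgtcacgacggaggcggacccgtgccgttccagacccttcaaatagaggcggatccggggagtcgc
SERPINB2, at chr18:63887455-63887704 (+ strand), IL1A, at chr2:112784494-112784743 (- strand), and LAMA3, at chr18:23872770-23873019 (+ strand), are shared falls that held AP-1 letters.
SERPINB2: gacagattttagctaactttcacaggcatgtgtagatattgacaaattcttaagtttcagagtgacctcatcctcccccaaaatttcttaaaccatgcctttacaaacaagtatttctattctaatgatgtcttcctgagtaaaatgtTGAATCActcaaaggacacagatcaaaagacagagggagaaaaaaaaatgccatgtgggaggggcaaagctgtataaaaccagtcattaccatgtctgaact
IL1A: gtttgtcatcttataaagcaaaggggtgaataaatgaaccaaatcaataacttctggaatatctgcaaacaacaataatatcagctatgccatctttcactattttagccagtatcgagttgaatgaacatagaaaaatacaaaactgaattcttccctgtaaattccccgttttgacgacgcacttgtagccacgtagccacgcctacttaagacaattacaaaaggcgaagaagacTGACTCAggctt
LAMA3: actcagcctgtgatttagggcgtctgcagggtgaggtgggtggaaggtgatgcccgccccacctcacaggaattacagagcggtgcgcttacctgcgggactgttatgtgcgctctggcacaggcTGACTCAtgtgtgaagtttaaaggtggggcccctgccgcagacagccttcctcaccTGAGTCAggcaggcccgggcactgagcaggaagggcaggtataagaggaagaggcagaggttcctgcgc
FBL, at chr19:39846380-39846629 (- strand), and TSR1, at chr17:2336458-2336707 (- strand), are shared falls of ribosome biogenesis shown because they held ETS letters, of which LYAR, PPAN, NPM1 and NOP56 of the same list held none.
FBL: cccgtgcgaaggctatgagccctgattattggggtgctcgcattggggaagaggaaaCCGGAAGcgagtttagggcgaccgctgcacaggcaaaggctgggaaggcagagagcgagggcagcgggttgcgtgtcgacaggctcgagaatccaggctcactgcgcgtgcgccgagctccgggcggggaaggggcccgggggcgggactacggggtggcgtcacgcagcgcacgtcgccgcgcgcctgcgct
TSR1: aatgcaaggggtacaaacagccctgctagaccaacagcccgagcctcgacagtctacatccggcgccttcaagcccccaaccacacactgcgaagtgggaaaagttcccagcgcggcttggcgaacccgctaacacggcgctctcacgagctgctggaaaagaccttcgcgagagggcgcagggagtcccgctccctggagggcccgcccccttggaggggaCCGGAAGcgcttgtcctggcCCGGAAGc
GBP1, at chr1:89065209-89065458 (- strand), and GABARAPL1, at chr12:10212627-10212876 (+ strand), are shared rises, the former with a CArG box and the latter with TFAP2 letters.
GBP1: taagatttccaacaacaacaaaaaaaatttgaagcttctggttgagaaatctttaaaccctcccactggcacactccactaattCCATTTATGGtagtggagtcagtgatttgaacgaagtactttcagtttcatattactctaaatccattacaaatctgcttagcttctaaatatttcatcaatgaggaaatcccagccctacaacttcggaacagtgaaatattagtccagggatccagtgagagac
GABARAPL1: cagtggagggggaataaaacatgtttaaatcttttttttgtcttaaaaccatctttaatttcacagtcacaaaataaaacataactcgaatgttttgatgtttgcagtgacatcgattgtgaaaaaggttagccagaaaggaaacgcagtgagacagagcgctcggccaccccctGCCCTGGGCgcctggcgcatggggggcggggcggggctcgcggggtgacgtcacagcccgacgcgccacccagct

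Total counts per library ranged from 28508758 to 80727478. The libraries were on 5 flow cells, called A to E. SCC25 PBS shared flow cell A with treated SCC25 of days 1 and 2, SCC1 PBS of day 5 shared C with all treated SCC1, and SCC6 PBS of days 2 to 5 shared D with treated SCC6 2a, 2b and 3. Treated SCC6 of days 4 and 5 were alone on E and were the deepest libraries. Elsewhere flow cell and treatment cannot be told apart, and therefore results are also given within the shared flow cells. Markers of squamous epithelium summed to between 2288 and 16110 CPM, counts scaled to a common library size, in the 30 libraries. Of 6 leukocyte markers the summed CPM ranged from 4.00 in treated SCC6 to 232.2 in SCC25 with PBS. CD68 made up most of the sum and is described with the inflammatory genes. CD14 was under 1 CPM in all of SCC6 but not in SCC1 and SCC25, while PTPRC, CD3E and LYZ were under 1 CPM in every library. Of 5 endothelial markers the sum ranged from 6.24 to 18.5 CPM in SCC1, where KDR was not under 1 CPM, and was at most 3.25 in the other lines. CDH5 and CLDN5 were under 1 CPM in every library. Of 9 fibroblast markers, summed CPM in treated and untreated cells had medians of 164.9 and 62.0 for SCC1, of 27.5 and 3.66 for SCC6, and of 330.5 and 206.5 for SCC25, while PDGFRB stayed under 1 CPM in every group other than treated SCC6 and LUM in SCC1 and SCC6. The part of these markers in the results below was not tested. A level in CPM is a share of the library, so fewer cells of a kind and less RNA per cell cannot be told apart.

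To find what the lines had in common, genes were first tested over the 30 libraries with a term for the cell line. Of 21414 genes, 8880 were differentially expressed at an adjusted p under 0.05, with 4781 higher (22.3%) and 4099 lower (19.1%) under cetuximab. The test here and below is the quasi-likelihood F test of edgeR, adjusted by Benjamini-Hochberg. When the dependence on GC content was taken out of every library, 41.37% of the calls were higher, against 53.84%. Genes were taken as well measured when they were tested in every line and had a mean of at least 3 log2 CPM in each, which held for 8897 genes. Of these the joint fit called 1729 higher (19.4%) and 2862 lower (32.2%). In the fit of each line alone, SCC1 had 20.6% higher and 32.5% lower, SCC6 had 14.2% higher and 19.7% lower, and SCC25 had 7.29% higher and 15.2% lower.

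A gene was called shared when it was well measured and passed the threshold in the same direction in the separate fit of every line. By this rule 255 genes were higher under cetuximab (2.87% of 8897) and 542 were lower (6.09%), while 63 genes passed in every line with mixed directions. These 2.87% and 6.09% are the background for the shared counts of the gene lists that follow. For their joint counts the background is 19.4% higher and 32.2% lower. In 136 genes (1.53%) every treated library lay above every PBS library of its line in each line, and in 269 (3.02%) below. Of the shared genes this held for 124 of the higher and 255 of the lower. All 797 shared genes were also called by the joint fit, which called 3953 well measured genes with the same sign in every line, 1414 higher and 2539 lower. With day within line as a replicate block, 395 genes were shared higher and 851 lower. With flow cell as a term, 101 were higher and 262 lower. Without scaling beyond the library total the counts were 353 and 342, and with the GC trend removed they were 412 and 1541. The lower count fell to 366 without SCC25 CTX 5, and the higher count to 172 without SCC25 PBS 2 and to 176 without SCC25 CTX 4. Under each of these settings no gene changed to the opposite shared direction. The settings reuse the libraries that chose the genes, so this outcome was nearly fixed beforehand. Within the shared flow cells, 253 of the 255 higher and 541 of the 542 lower genes kept their sign in SCC1. All of them did in SCC6 and SCC25. The same libraries chose these genes, so a kept sign was likely beforehand, and in SCC1 it rests on 1 PBS library. Of the 255 and 542 genes, the fit with the flow cell called 229 and 495 the same way in SCC6 and 116 and 286 in SCC25.

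Most shared changes were modest, and they were smallest in SCC25. The median log2 fold change (cetuximab over PBS) of the 255 higher genes was 0.60 in SCC1, 0.77 in SCC6 and 0.36 in SCC25, and that of the 542 lower genes was -0.40, -0.56 and -0.32. Over all 8897 genes the medians were -0.06, -0.06 and -0.05. SCC25 had the smallest change of the 3 lines in 203 of the higher and 354 of the lower genes, and SCC6 the largest in 164 and 372. A change of at least 1 on the log2 scale in every line was found in 6 higher and 13 lower genes, and of at least 0.5 in 52 and 62. The size of the change differed between lines, by the line-by-treatment terms, in 328 shared genes (41.15%), against 33.39% of the well measured genes. Of these 141 were higher and 187 lower.

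Because each line was part of the rule that chose the shared genes, every line was also looked up with genes picked in the other lines. Of 309 genes higher in both SCC6 and SCC25, 82.52% were called higher in SCC1, and of 664 lower genes 81.63% were called lower. In SCC6, 54.96% of 464 higher and 53.77% of 1008 lower genes picked in SCC1 and SCC25 were called the same way. In SCC25 these were 37.44% of 681 higher and 52.02% of 1042 lower genes. Opposite calls made up between 0.19% and 2.59% of each list. A score was then read in every library, the median over the picked genes of the log2 ratio to the PBS mean of the line, with the sign of lower genes turned. Each PBS library was left out of the PBS mean that it was compared with. The score lay between 0.325 and 0.447 in treated SCC1, between 0.29 and 0.501 in treated SCC6 and between 0.145 and 0.227 in treated SCC25. PBS libraries lay between -0.074 and 0.123. In every line the treated libraries lay above all of its PBS libraries, and the highest PBS scores were those of day 5 in SCC6 (0.123) and SCC25 (0.093). Treated SCC6 2a (0.301) and 2b (0.29) were next to each other.

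**Figure D1:**
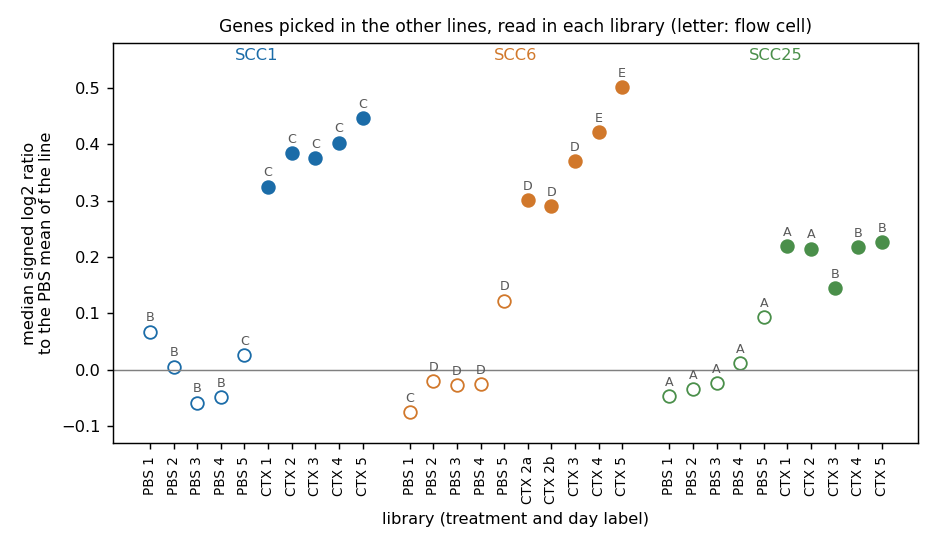
Score of each library (y axis, log2 units, relative to the PBS mean of its line) for genes called in the same direction in the other lines, by library (x axis), with open points for PBS, filled points for cetuximab and letters for flow cells. Each PBS library was left out of the PBS mean that it was compared with. Treated libraries sit between 0.145 and 0.501, above every PBS library of their line, with SCC25 lowest.

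The shared genes with the largest changes in their least responsive line were ranked by the smallest of the 3 changes, so their sizes are a description. The 12 falls were EGR1, SERPINB2, DUSP4, SLCO4A1, DUSP5, EREG, DUSP6, HMGA1, AREG, FOSL1, NAV3 and SPRY2, of which DUSP4, DUSP5, DUSP6, SPRY2, EGR1 and FOSL1 are outputs of ERK and AREG and EREG are EGFR ligands. In each of these 12 genes no treated library overlapped a PBS library in any line. HMGA1, an architectural chromatin protein, went from 1227 to 271.8 CPM in SCC1, from 950.1 to 330.6 in SCC6 and from 588.4 to 270.3 in SCC25. The SCC6 PBS mean includes 1614 CPM on day 1, which has no treated counterpart by label, against 673.3 to 865.9 on days 2 to 5. SLCO4A1, an organic anion transporter, fell by 2.47, 2.48 and 1.37 on the log2 scale in the same order of lines, and NAV3, a microtubule-associated protein, fell by 2.63, 1.85 and 1.05. The 12 rises were EDIL3, MYL9, TGFB2, HEG1, SLC7A7, OLR1, MUC4, ALPP, TP53INP1, GBP1, L1CAM and PALLD.

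**Figure D2:**
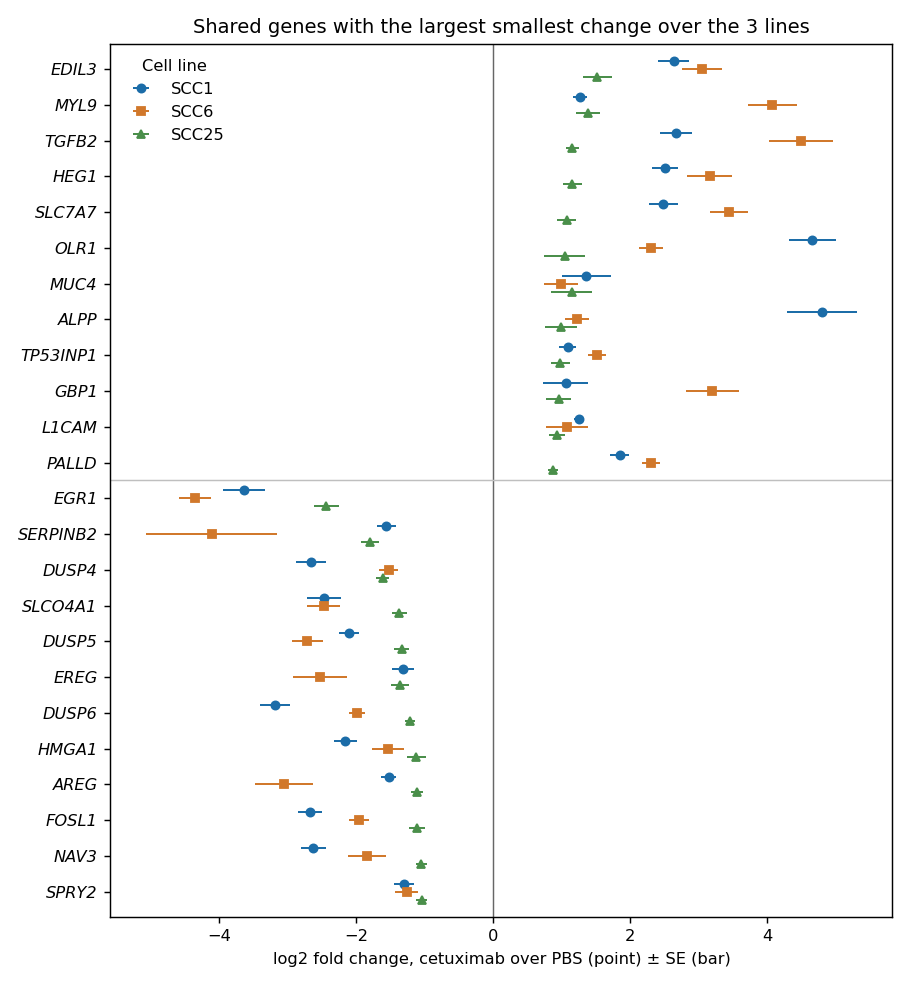
Log2 fold change of cetuximab over PBS (x axis) with its SE (bars) in SCC1, SCC6 and SCC25 for the 12 rises and 12 falls with the largest smallest change (y axis). EGR1 has the deepest falls (-3.64, -4.35 and -2.44), and the SCC25 points are the nearest to 0 for most genes.

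Outputs of the ERK pathway fell in all lines. Of 28 listed genes, 19 were well measured, 14 of which were shared lower and none higher, against 6.09% lower among all well measured genes. The joint fit called 17 lower and none higher. The median log2 fold change of the 19 was -1.69 in SCC1, -1.42 in SCC6 and -0.74 in SCC25, and the count of shared falls ranged from 13 to 15 over the alternative fits and the removal of each library in turn. EGR1 (GRCh37 chr5:137801168-137804992), a zinc finger immediate early factor, stood in SCC1 at 69.5, 76.1, 43.6, 41.2 and 37.9 CPM with PBS on days 1 to 5 and at 2.79, 7.89, 4.19, 3.72 and 2.74 with cetuximab. In SCC6 it was at 226.9, 239.8, 210.5, 227.3 and 238.0 CPM with PBS and at 16.1, 11.6, 14.6, 7.83 and 6.62 with cetuximab (2a, 2b and days 3 to 5). In SCC25 it was at 45.2, 65.8, 67.9, 92.8 and 75.8 CPM against 9.67, 14.7, 10.8, 15.3 and 13.7. The groups were far apart in every line, and the highest treated library of the 15 was at 16.1 CPM. The joint log2 fold change was -3.48 ± 0.23 (SE, adjusted p = 7.8e-12), an 11.1-fold fall.

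DUSP6 (GRCh37 chr12:89741012-89746278), the phosphatase that inactivates ERK in the cytoplasm, fell the most in SCC1. There it was at 106.2, 176.3, 165.3, 144.4 and 99.9 CPM with PBS and at 14.0, 20.1, 18.6, 13.7 and 9.14 with cetuximab. In SCC6 the means were 46.0 ± 6.2 and 11.7 ± 1.08 CPM (SD, n = 5 each), and in SCC25 they were 88.5 ± 7.49 and 38.2 ± 2.91. The changes of -3.19 ± 0.22, -1.99 ± 0.12 and -1.22 ± 0.07 on the log2 scale (SE) differed between lines (adjusted p = 3.5e-07). SPRY2 (GRCh37 chr13:80910111-80915261), a feedback inhibitor of receptor tyrosine kinase signalling, had changes of -1.31 ± 0.15, -1.27 ± 0.16 and -1.05 ± 0.08, and the test of a difference between lines gave an adjusted p of 0.53. Its level was at 7.87 to 14.4 CPM with PBS and at 3.85 to 5.49 with cetuximab in SCC1, at 33.2 to 56.7 and 16.8 to 24.1 in SCC6 and at 14.8 to 17.7 and 7.11 to 8.48 in SCC25. DUSP4, a nuclear phosphatase of ERK, fell by 2.67, 1.53 and 1.62, DUSP5 by 2.11, 2.72 and 1.34 and FOSL1 by 2.68, 1.96 and 1.11 in SCC1, SCC6 and SCC25. The other shared falls of the list were SPRY4, ETV4, IER2, IER3, PHLDA1, MYC, MAFF and PLAUR. The well measured members that did not pass in every line were SPRED1, SPRED2, ETV5, EPHA2 and CCND1.

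The EGFR ligands that were well measured, TGFA, HBEGF, AREG and EREG, all fell in every line, and all 4 remained shared falls under each alternative fit with the flow cell, the replicate block or any 1 library left out. AREG (amphiregulin, GRCh37 chr4:75310853-75320722) was at 207.1, 251.9, 336.6, 313.7 and 286.7 CPM with PBS and at 88.8, 91.0, 110.1, 98.4 and 92.3 with cetuximab in SCC1. In SCC6 it was at 385.6, 529.0, 491.2, 414.2 and 372.4 against 77.5, 89.1, 61.9, 23.6 and 15.2, and in SCC25 at 63.1, 78.5, 90.3, 78.5 and 83.6 against 35.1, 38.4, 39.7, 34.6 and 34.4. The treated SCC6 libraries of days 4 and 5, those on flow cell E, were the lowest of all. Within flow cell D the SCC6 change was -2.58, against -3.06 ± 0.43 over all libraries. EREG (epiregulin) fell from 740.4 to 129.8 CPM in SCC6, from 30.9 to 12.3 in SCC1 and from 19.8 to 7.76 in SCC25. HBEGF, a heparin-binding ligand, fell by 2.99, 2.00 and 1.04 on the log2 scale in SCC1, SCC6 and SCC25, while TGFA had changes of -2.02, -1.63 and -0.57. EGF, BTC and EPGN were not well measured in all lines. EGF itself moved the other way, from 0.196 to 0.609 CPM in SCC1, from 0.191 to 0.773 in SCC6 and from 4.96 to 6.68 in SCC25, and passed in each line (adjusted p = 0.00016, 0.015 and 0.0084).

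The receptor itself did not share this course. EGFR (GRCh37 chr7:55086710-55279321) was at 575.6, 618.4, 636.1, 598.4 and 589.6 CPM with PBS and at 789.2, 806.7, 881.5, 1008 and 1009 with cetuximab in SCC1, where it rose by 0.58 ± 0.07 on the log2 scale (adjusted p = 5.2e-05). In SCC6 it was at 877.5 to 1028 CPM with PBS and 917.6 to 1120 with cetuximab, and in SCC25 at 1012 to 1047 and 1065 to 1138. The changes there were 0.09 ± 0.09 (adjusted p = 0.46) and 0.09 ± 0.04 (adjusted p = 0.15), and the change differed between lines (adjusted p = 0.00025). ERRFI1, an inhibitor that binds the EGFR kinase domain, was the only shared gene of the receptors and regulators listed, lower by 0.51, 1.32 and 0.97. CBLB was also shared higher with the replicate block, and ERBB2 without SCC25 CTX 3 or with the GC trend removed. ERBB2 had changes of 0.52, 0.71 and 0.08, of which SCC1 and SCC6 passed, and ERBB3 of 0.89, -0.44 and 0.49. Among other receptor tyrosine kinases FGFR2, a fibroblast growth factor receptor, rose in all lines (1.62, 2.18 and 0.29) and MST1R, the receptor of macrophage stimulating protein, fell (-1.08, -1.41 and -0.47), without passing in every line with flow cell as a term in the case of MST1R.

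**Figure D3:**
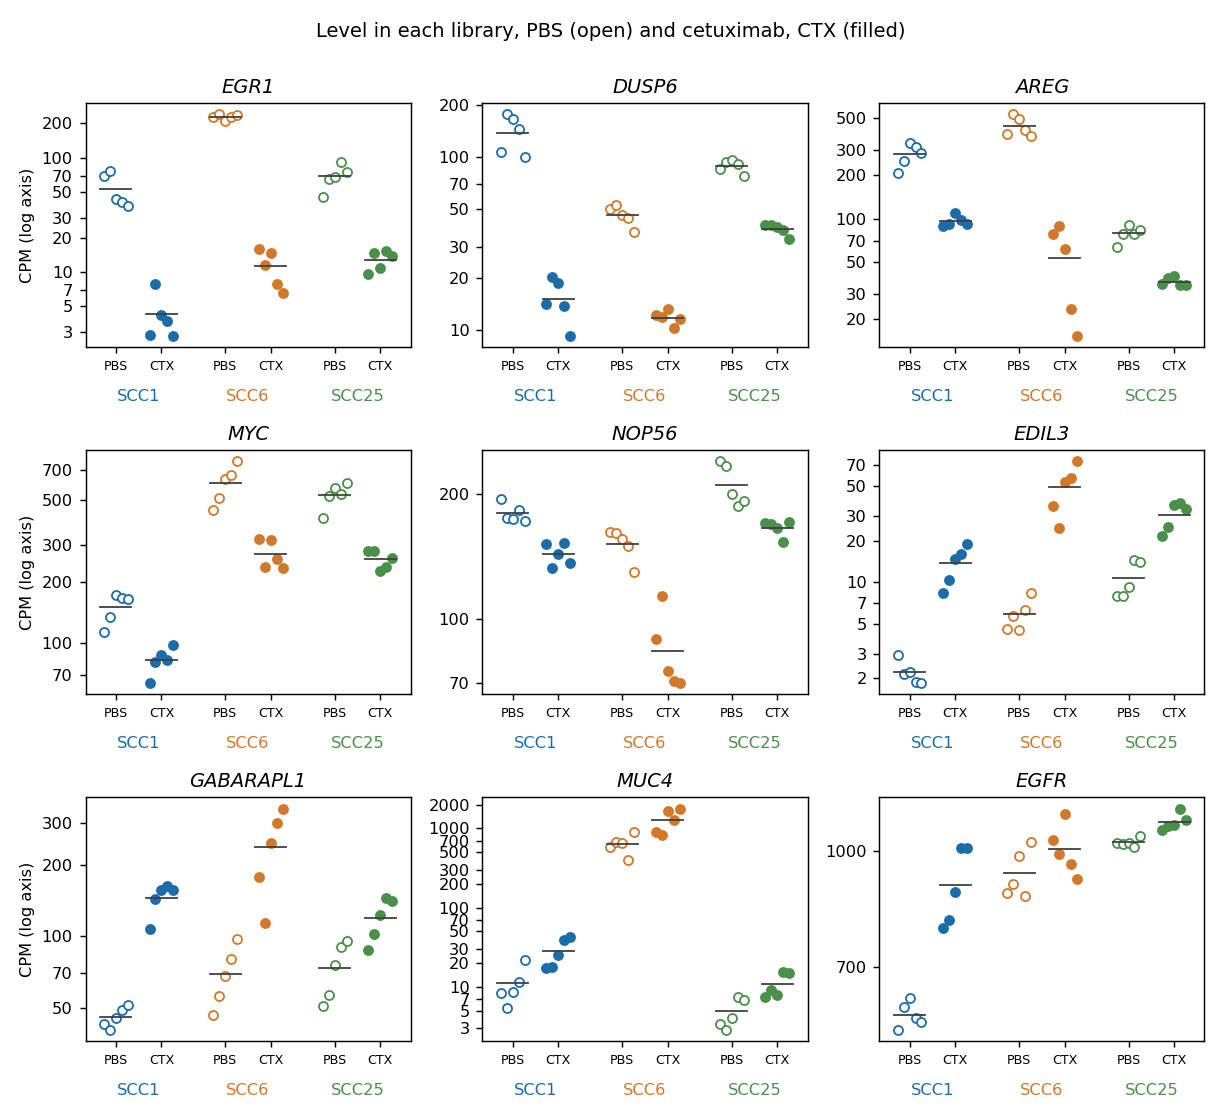
Level in CPM (y axis, log scale) of 9 genes in each library, in the order of the day labels within a group, with open points for PBS, filled points for cetuximab (CTX), and a line at the group mean (n = 5). EGR1, DUSP6, AREG, MYC and NOP56 are lower and EDIL3 higher in every treated library of each line, while GABARAPL1, MUC4 and EGFR overlap in at least 1 line.

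MYC, the transcription factor that drives growth and ribosome production, fell in every line. In SCC1 it was at 113.4, 134.4, 171.6, 165.6 and 165.1 CPM with PBS and at 64.0, 81.4, 87.9, 83.4 and 98.2 with cetuximab. In SCC6 it was at 447.9 to 767.4 against 232.1 to 321.2, and in SCC25 at 406.2 to 600.1 against 224.5 to 281.8. Groups did not overlap in any line. The log2 fold changes were -0.84 ± 0.13, -1.16 ± 0.15 and -1.04 ± 0.10, the joint fall was 2.02-fold (adjusted p = 3.2e-10), and the test of a difference between lines gave an adjusted p of 0.51.

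Ribosome biogenesis genes, which assemble ribosomes in the nucleolus, fell with small changes in all lines. Of 26 listed genes, all well measured, 22 were shared lower and none higher, and the joint fit called all 26 lower. The members not shared were BOP1, POLR1A, UTP20 and RRS1. The median log2 fold change was -0.31 in SCC1, -0.70 in SCC6 and -0.36 in SCC25. NOP56 (GRCh37 chr20:2633239-2639039), a core protein of the box C/D small nucleolar ribonucleoproteins, was at 171.9 to 194.9 CPM with PBS and 132.5 to 152.0 with cetuximab in SCC1, at 129.9 to 162.0 against 69.8 to 113.6 in SCC6 and at 186.5 to 239.5 against 152.8 to 171.2 in SCC25. FBL (fibrillarin), the methyltransferase of the same particles, fell by 0.44, 0.64 and 0.47. TSR1, a factor of small subunit maturation, fell by 0.37, 0.70 and 0.41, and NPM1 (nucleophosmin) by 0.45, 0.74 and 0.38. LYAR, a nucleolar regulator of growth, had the largest change in its least responsive line, with falls of 0.84, 1.23 and 0.55. PPAN fell by 0.50, 0.50 and 0.46, and its SCC25 call was lost when any of SCC25 PBS 1, 2, 3 or 5 or CTX 4 or 5 was left out (adjusted p 0.055 to 0.093). With flow cell as a term, 12 of the 26 were shared lower.

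Cytosolic ribosomal proteins fell less. Of 77, 20 were shared lower and none higher, while the joint fit called 75 lower, and the medians were -0.13, -0.39 and -0.24. The shared count was 13 without SCC6 PBS 4 or without SCC6 CTX 5, 50 with the GC trend removed, and 1 with flow cell as a term. RPS16 fell by 0.31, 0.48 and 0.34, RPL6 by 0.23, 0.48 and 0.25, and RPL14 by 0.24, 0.55 and 0.26. These genes have many near-identical processed copies in the genome among which reads can be split, and their single values are uncertain for that reason.

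Replication genes fell in the joint fit, and less uniformly by line. Of 33 genes of DNA replication the joint fit called 32 lower and none higher, with all 33 called lower in SCC1, 7 in SCC6 and 17 in SCC25, and 3 shared. Medians were -0.63, -0.22 and -0.26. The 3 shared genes were RRM2, a subunit of ribonucleotide reductase (-1.01, -0.79 and -0.35), CDC45, part of the replicative helicase (-0.80, -0.31 and -0.39), and MCM10, which activates it (-0.82, -0.55 and -0.41). The call of RRM2 in SCC25 was lost without any of SCC25 PBS 1, 2 or 3 or CTX 4 or 5 (adjusted p 0.053 to 0.08), and that of CDC45 in SCC6 without any of SCC6 PBS 3, 4 or 5 or CTX 2a, 4 or 5 (0.051 to 0.07). The shared count was 9 without SCC6 PBS 1, 7 without SCC6 CTX 2b, 14 with the replicate block, 17 with the GC trend removed and 1 with flow cell as a term.

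Of 29 well measured mitosis genes the joint fit called 20 lower and none higher, with medians of -0.42, -0.15 and -0.29. UBE2C, the ubiquitin-conjugating enzyme of the anaphase-promoting complex, was the only member shared, at -0.56, -0.31 and -0.46. It was no longer shared without any of 13 libraries of SCC6 and SCC25 (adjusted p up to 0.11), or with flow cell as a term. With the replicate block, 10 members were shared lower. Of 8 well measured G1 cyclins and CDK inhibitors none was shared, and the joint fit called 1 higher (CDKN1B, a CDK inhibitor, at 0.25 ± 0.05) and 4 lower.

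Among the shared rises, EDIL3 had the largest change in its least responsive line. EDIL3 (GRCh37 chr5:83236373-83680698), a secreted matrix protein that binds integrins, was at 2.94, 2.15, 2.24, 1.89 and 1.85 CPM with PBS and at 8.29, 10.3, 14.6, 16.1 and 19.0 with cetuximab in SCC1. In SCC6 it was at 4.55, 5.68, 4.47, 6.23 and 8.34 against 35.4, 24.7, 53.1, 56.6 and 74.8, and in SCC25 at 7.90, 7.86, 9.28, 14.5 and 13.9 against 21.6, 24.9, 36.3, 37.3 and 33.8. No treated library overlapped a PBS library, and the joint rise was 5.25-fold (adjusted p = 3.8e-10). TGFB2 (GRCh37 chr1:218518678-218617961), a ligand of the TGF-beta receptors, rose from 5.32 ± 3.57 to 120.8 ± 47.5 CPM in SCC6, from 2.28 ± 0.56 to 14.4 ± 4.38 in SCC1 and from 43.1 ± 4.34 to 96.3 ± 13.4 in SCC25 (SD, n = 5 each). The rise of TGFB2 differed between lines (adjusted p = 3.7e-06). MYL9, the regulatory light chain of non-muscle and smooth muscle myosin, rose by 1.26, 4.08 and 1.39 on the log2 scale and PALLD, an actin-bundling protein, by 1.85, 2.30 and 0.87. HEG1, a mucin-like membrane receptor, rose by 2.51, 3.16 and 1.15. SLC7A7, a subunit of a cationic amino acid transporter, rose by 2.48, 3.45 and 1.07, and TP53INP1, a stress-induced protein, by 1.09, 1.52 and 0.98.

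Some of the rises rested on few libraries or on the flow cell. MUC4 (GRCh37 chr3:195473636-195538844), a membrane mucin, was at 5.43 to 22.1 CPM with PBS and 17.4 to 42.2 with cetuximab in SCC1, at 398.9 to 890.3 against 820.5 to 1786 in SCC6 and at 2.82 to 7.43 against 7.52 to 15.3 in SCC25, overlapping in SCC1 and SCC6. Its changes were 1.36 ± 0.36, 0.99 ± 0.25 and 1.15 ± 0.30 (SE, adjusted p of the line difference 0.85), and within the shared flow cells they were 0.38, 0.77 and 0.75 and none passed. GBP1, an interferon-induced GTPase with related family members that can share reads, rose by 1.06, 3.20 and 0.95, and within flow cell C its SCC1 change was -0.02. OLR1, a receptor of oxidised low-density lipoprotein, rose by 4.66, 2.30 and 1.04, with the SCC25 call lost without any of SCC25 PBS 1, 2 or 3 or CTX 4 or 5 (adjusted p 0.056 to 0.08). The SCC25 call of MUC4 was lost without any of SCC25 PBS 2 or 3 or CTX 4 or 5 (0.05 to 0.057). L1CAM, an adhesion molecule, rose by 1.25, 1.08 and 0.93, and its SCC6 call was lost without any of SCC6 PBS 3 or 4 or CTX 4 or 5 (0.052 to 0.059). ALPP, placental alkaline phosphatase, rose by 4.80, 1.22 and 0.99 and has near-identical paralogues among which reads can be split.

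Of 29 well measured lysosome and autophagy genes, 6 were shared higher and none lower, against 2.87% higher among all well measured genes. The joint fit called 16 higher and 3 lower and left 10 uncalled, and 9 of the 29 had a lower sign in SCC1. Medians were 0.18, 0.25 and 0.13. GABARAPL1 (GRCh37 chr12:10365057-10375727), which is conjugated to autophagosome membranes, was at 42.7, 40.2, 45.1, 48.9 and 51.4 CPM with PBS and at 108.0, 143.3, 156.3, 163.2 and 157.6 with cetuximab in SCC1. In SCC6 it was at 46.5, 55.9, 68.0, 80.0 and 97.3 against 177.7, 114.1, 247.8, 301.4 and 346.2, and in SCC25 at 51.1, 56.8, 76.0, 90.6 and 95.4 against 88.0, 102.3, 123.3, 144.9 and 141.6. The lowest PBS libraries of SCC6 and SCC25 were those of day 1 and the highest those of day 5, and in SCC25 the groups overlapped. The changes were 1.68 ± 0.11, 1.76 ± 0.28 and 0.69 ± 0.19, and the last was not called without SCC25 PBS 2 or CTX 4 or 5 (adjusted p 0.059 to 0.063). WIPI1, a phosphoinositide-binding autophagy protein, rose by 0.55, 0.74 and 0.64. LAMP2, a lysosomal membrane protein, rose by 0.34, 0.41 and 0.30, and PSAP, the precursor of the saposins, by 0.54, 0.46 and 0.37. HEXA, a subunit of hexosaminidase, rose by 0.33, 0.26 and 0.15. It was no longer shared without any of 14 libraries of SCC6 and SCC25 (adjusted p up to 0.12). The SCC6 call of PSAP was lost without any of SCC6 PBS 2 or 3 or CTX 4 or 5 (0.06 to 0.073), and that of LAMP2 without SCC6 CTX 3. The shared count was 3 without SCC6 CTX 3 and 0 with flow cell as a term. FOXO targets, genes whose transcription AKT signalling holds down, had 7 of 11 well measured members called higher by the joint fit and none shared, with SESN1 at 0.69, 0.33 and 0.18 and INSR at 0.53, 0.40 and 0.22. With the replicate block, INSR and CDKN1B were shared higher.

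Genes of the urokinase system, which activates plasminogen at the cell surface, fell together. Of 9 well measured invasion proteases and inhibitors, 4 were shared lower and 1 higher. PLAUR, the urokinase receptor, fell from 78.8 to 20.3 CPM in SCC1, from 270.1 to 52.1 in SCC6 and from 29.9 to 21.8 in SCC25. PLAU, the urokinase, fell by 1.45, 1.71 and 0.30 on the log2 scale and SERPINB2, an inhibitor of it, by 1.56, 4.11 and 1.80. In SCC6 these genes also fell with PBS between days 1 and 5. SERPINB2 went from 1604 to 335.1 CPM, PLAUR from 384.6 to 127.2 and PLAU from 1345 to 522.6. Treated SCC6 has no library labelled day 1, and the part of the day in these SCC6 changes was not tested. TIMP1, an inhibitor of matrix metalloproteinases, fell by 0.83, 1.13 and 0.72, whereas TIMP2, of the same family, rose by 0.53, 1.16 and 0.56. The SCC25 call of PLAU was lost without any of SCC25 PBS 1, 2 or 3 or CTX 3, 4 or 5 (adjusted p 0.063 to 0.1), and the shared lower count of the list was 2 without SCC25 PBS 1, 2 or 3 and with flow cell as a term.

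LAMA3 and LAMB3, chains of a laminin that anchors basal keratinocytes, fell in all lines. Of 15 well measured basal and hemidesmosome genes, 3 were shared lower and 2, KRT17 and DST, higher. The joint fit called 5 lower and 4 higher, against 32.2% lower and 19.4% higher among all well measured genes. In SCC25 the sign was lower for 11 of the 15. LAMB3 fell by 1.23, 1.22 and 0.34 and LAMA3 by 0.50, 1.47 and 0.38. With PBS in SCC6, LAMA3 went from 2492 CPM on day 1 to 763.4 on day 4 and 489.4 on day 5. The last 2 values lay within the treated range of 329.0 to 819.8, although each treated library was below PBS of its own day label. Treated SCC6 has no library labelled day 1, and the part of the day in the SCC6 change was not tested. KRT17, a basal keratin, rose from 513.7 to 2825 CPM in SCC1, from 551.1 to 1474 in SCC6 and from 1013 to 1692 in SCC25, and DST, which links keratins to hemidesmosomes, rose by 1.00, 0.51 and 0.35. KRT17 has pseudogenes that can share its reads. Without SCC6 CTX 5 LAMA3 was no longer called in SCC6 (adjusted p 0.055), and with flow cell as a term no gene of the list was shared in either direction. The SCC25 call of KRT17 was lost without any of SCC25 PBS 1, 2 or 3 or CTX 4 or 5 (0.056 to 0.074), and that of LAMB3 without any of SCC25 PBS 2, 3 or 5 or CTX 1 (0.051 to 0.066).

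The inflammatory genes IL1A, IL1B and PTGS2 fell in all lines and CSF1 rose, these being the 4 well measured members of 19 cytokine and prostaglandin genes. IL1B fell from 533.2 to 68.9 CPM in SCC1, from 134.5 to 29.9 in SCC6 and from 55.1 to 38.4 in SCC25, and IL1A by 2.04, 1.56 and 0.55 on the log2 scale. PTGS2, the inducible cyclooxygenase, fell by 1.09, 1.70 and 0.51, and CSF1, the macrophage growth factor, rose by 0.96, 1.11 and 0.45. In SCC25 the 4 genes overlapped between treatments, and without SCC25 PBS 3 none of the falls was called there (adjusted p = 0.054 for IL1A). Without SCC25 PBS 4 or CTX 5 a single fall was shared. The SCC25 call of IL1B was lost without any of 7 of the 10 libraries of that line, namely PBS 2 to 5 and CTX 1, 2 and 5 (adjusted p 0.057 to 0.089). With PBS of day 0 added the SCC25 calls of IL1A and IL1B were lost, and with flow cell as a term the SCC1 call of CSF1 was lost. CD68, a lysosomal glycoprotein listed as a leukocyte marker, fell by 2.15, 1.89 and 0.32, and its SCC25 call was lost without CTX 5 (adjusted p = 0.05).

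Metabolic lists moved little in common. Of 22 well measured glycolysis and hypoxia genes, ENO1 (-0.36, -0.47 and -0.28) and GPI (-0.36, -0.52 and -0.20) fell and ADM, which encodes the peptide adrenomedullin, rose (0.78, 1.42 and 0.47) in all lines. The SCC25 call of GPI was lost when any of 9 of the 10 libraries of that line was left out (adjusted p 0.051 to 0.088), PBS 3 being the exception. In the respiratory chain 1 of 40 genes was shared, SDHB (-0.27, -0.48 and -0.29), and in fatty acid synthesis 1 of 9, ELOVL6 (-0.32, -1.19 and -0.45). Of 21 cholesterol genes the joint fit called 10 higher, while SCC25 had none called higher.

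No member was shared in either direction among ATF4 targets (17 of 20 well measured), mesenchymal markers (5 of 10) and keratinocyte differentiation genes (5 of 32). So few mesenchymal and differentiation genes were well measured that the lack of shared members says little about these lists. Interferon-stimulated and MHC class I genes also had no shared member in the primary fits. With the replicate block, 3 interferon genes (IFIT1, IFIT2 and STAT2) and 4 MHC class I genes, TAP1, TAPBP and ERAP1 among them, were shared higher. The MHC class I count was also 3 with PBS of day 0 added, with the GC trend removed, and without SCC25 PBS 5 or SCC25 CTX 3, 4 without scaling beyond the library total, 2 without SCC25 CTX 1, and 1 with DESeq2 in place of edgeR or with no filter on low counts. Of 17 well measured interferon genes the joint fit called 6 higher and none lower, with medians of 0.39, 0.31 and 0.47, and SCC25 had none called by its own fit. STAT2 was at 0.85, 0.53 and 0.46, and within the shared flow cells at 0.33, 0.44 and 0.07. Of 11 MHC class I genes the joint fit called 5 higher and 1 lower, with TAP1, a peptide transporter, at 0.52, 1.05 and 0.40. COL1A1, the only fibroblast marker well measured in all lines, was at 1.72, 3.72 and 0.40 and passed in SCC1 and SCC6.

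**Figure D4:**
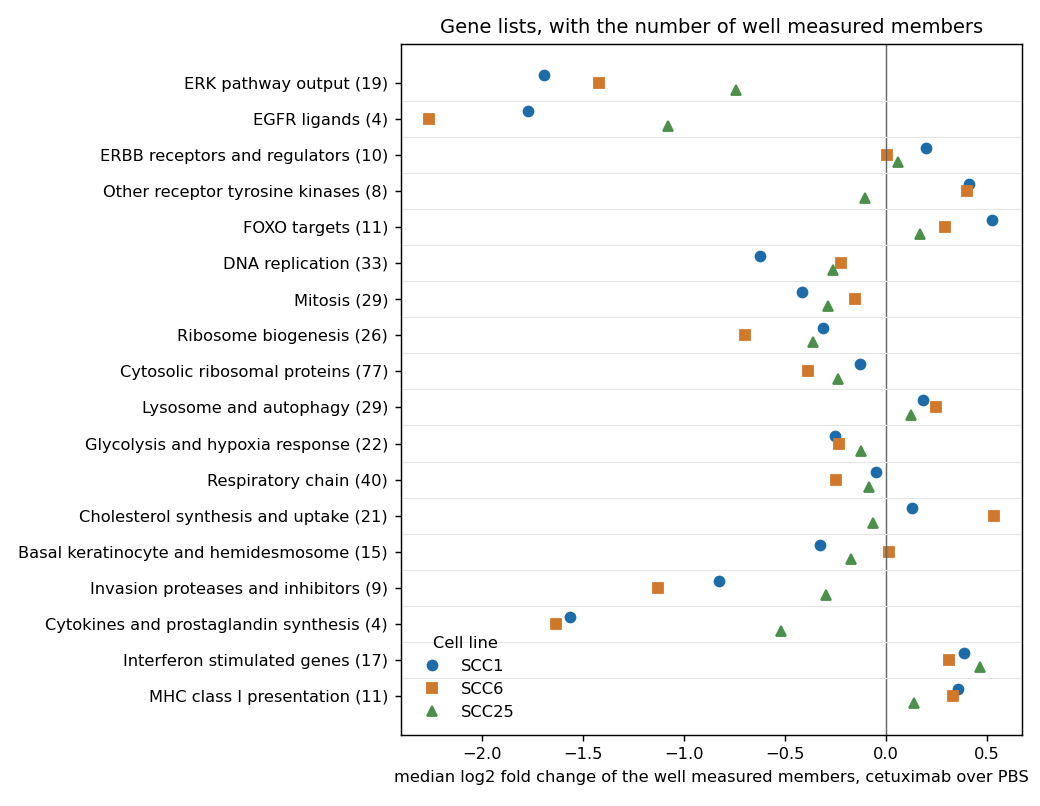
Median log2 fold change of cetuximab over PBS (x axis) over the well measured members of 18 gene lists (y axis, with the number of members) in SCC1, SCC6 and SCC25. ERK outputs, EGFR ligands, cytokine genes and ribosome biogenesis genes lie below 0 in every line. So do the lists of DNA replication, mitosis, cytosolic ribosomal proteins, glycolysis and hypoxia, respiratory chain, and invasion proteases and inhibitors. The lists of lysosome and autophagy, interferon, MHC class I and FOXO targets lie above 0 in every line. ERBB receptors and regulators lie at 0.199 in SCC1, 0.005 in SCC6 and 0.06 in SCC25, with 5 of 10 members of lower sign in SCC6.

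Shared genes were also picked for a like change in every line, so that their likeness is a description. Among those with a change of at least 0.5 everywhere, the 5 of each direction with the smallest spread were WIPI1, L1CAM, SH3BGRL, KRCC1 and TBC1D9 among the rises and SPRY2, SRM, CCDC86, SURF2 and MBOAT2 among the falls. MBOAT2, a lysophospholipid acyltransferase, fell by 0.73 ± 0.06, 0.67 ± 0.14 and 0.57 ± 0.06 (SE), with an adjusted p of 0.60 for a difference between lines. CCDC86 fell by 0.61, 0.67 and 0.55, and TBC1D9 rose by 0.64, 0.94 and 0.69. SRM, spermidine synthase, was at -0.61, -0.52 and -0.55. The SCC6 calls of SH3BGRL, KRCC1, SRM and SURF2 and the SCC25 calls of SRM and SURF2 were lost on leaving out any of 3 to 7 libraries of that line (adjusted p up to 0.11).

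Genes that passed in every line with mixed signs were led by FLNC, INHBA, C3, EMP1 and AXL. FLNC, an actin cross-linker, was at -1.39, 0.87 and -0.68 in SCC1, SCC6 and SCC25, INHBA, a subunit of activin, at -1.19, 0.75 and -0.67, and AXL, a receptor tyrosine kinase, at -1.18, 0.59 and -0.62. In these SCC6 moved against the others. C3, a complement component, was at 0.88, -0.66 and 1.40, and EMP1, a membrane protein, at 0.98, -2.25 and -0.63. Of the genes on which the study centred, TFAP2A had changes of 0.09 ± 0.05, 0.03 ± 0.14 and -0.10 ± 0.06 and passed in none of the lines, and its joint change was 0.01 ± 0.05 (adjusted p = 0.87). VIM, the intermediate filament vimentin, was at -3.88 ± 0.30, 2.00 ± 0.43 and -0.47 ± 0.16, of which the SCC25 value did not pass (adjusted p = 0.063). IGF1R was at 0.51, 0.93 and -0.11 and VEGFA at -1.36, -0.33 and -0.61. TGFBR3 (1.23, -1.07 and -0.57) and FGFR1 (-0.81, 0.10 and -0.30) were not well measured in all lines.

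Promoter letters were counted over the 300 bases from 250 before to 50 after the start, in RefSeq promoters matched by symbol for 202 of the 255 shared rises, 423 of the 542 shared falls and 7031 of the 8897 well measured genes. ETS letters (CCGGAAG), as in FBL and TSR1 above, were held by 27.4% of the shared falls, 12.9% of the shared rises, 22.6% of the well measured genes and 10.7% of all 27305 promoters. The E-box CACGTG was held by 16.1%, 7.92%, 11% and 7.43% in the same order. AP-1 letters, as in SERPINB2, IL1A and LAMA3, were held by 5.67% of the falls, 5.94% of the rises, 4.05% of the well measured genes and 7.76% of all promoters. TFAP2 letters were held by 26.5%, 34.7%, 32.5% and 23.0%, CCAAT by 36.6%, 25.2%, 37.4% and 35.7%, and the CArG box by 1.18%, 3.47%, 1.04% and 1.29%. The ETS letters, the E-box and CCAAT had a higher share in the falls than in the rises. The TFAP2 letters and the CArG box had a lower share, and the AP-1 shares were close to each other. The CArG shares rest on few promoters, 5 of 423 falls and 7 of 202 rises. These differences were not tested.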

How the data were processed

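The study measured poly(A) RNA of the 3 lines by bulk RNA-seq (stranded TruSeq libraries). The authors deposited estimated counts per gene symbol, inferred with Salmon 0.8.2 and imported with tximport, not normalised between libraries. The submitters' notes name builds hg19 and GRCh37, and the annotation is not given in the sources used here. The table holds 56470 symbols, of which 11814 have no count in any library, and 63.2% of its values are whole (tolerance 0). Counts were rounded and analysed with edgeR 4.0.16 in R 4.3.3 (limma 3.58.1, DESeq2 1.42.0, and numpy 2.4.6 and pandas 2.3.3 in Python). Low genes were removed with filterByExpr, libraries scaled by TMM, and two-sided quasi-likelihood F tests fitted with line as a covariate, within each line, and with line-by-treatment terms. Called genes had a Benjamini-Hochberg adjusted p under 0.05. CPM used the TMM factors, and ratios of single libraries added 0.1 CPM. The SE is the log2 fold change divided by the square root of F. No 2 libraries agreed within sampling noise.

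Per the labels, PBS and cetuximab libraries of a line share days, so day pairs them. Across genes, deviations from the treatment means correlated by 0.11 to 0.38 within days in SCC1, 0.22 to 0.58 in SCC25 and -0.17 to 0.58 in SCC6. The design without this block was primary, and the block was an alternative.

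Gene positions came from GENCODE on GRCh37 (34694 symbols matched, 1359 more by an older symbol) and promoters from RefSeq on GRCh38.p14, without conversion between builds. Named genes were the 12 shared genes of each direction with the largest smallest change, up to 6 shared members of each list (or up to 2 called jointly where none was shared), EGFR with its ligands and receptors, genes that the study names, 5 called genes of mixed sign, and 5 of each direction with the least spread. NOP56, and the other list members given by name alone, were added after their values were seen. The libraries examined, the lists and the rules were chosen with earlier results of these data known. Alternatives covered the test, scaling, filter, size of change, day block, flow cell, day 0, GC content, threshold for well measured, and leaving out a library or line. The removal of treated SCC6 of flow cell E was added after seeing the data. Single values of a few members of the lists are not reported here, although the counts include them.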

Additional observations from a re-analysis of the deposited data

Results flagged for a closer look

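Of 66 groups of 5 libraries examined for a library far from the others, 3 had one, and chance flags about 1 group in 20. In treated SCC1, EGR1 was at 7.89 CPM on day 2, against 2.74 to 4.19 on the other days, and it lay below every PBS library of that line. The score over genes picked in the other lines was 0.123 in SCC6 PBS 5, against -0.074 to -0.02 in the other PBS libraries of SCC6. The same score was 0.145 in SCC25 CTX 3, against 0.215 to 0.227 in the other treated SCC25 libraries.

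Whether the change under cetuximab differed between the lines was read, by the line-by-treatment terms of edgeR's quasi-likelihood fit over 30 libraries, for the 9 genes plotted by library and the 5 genes of mixed signs, and it did for 12 of them. Other genes described also differed, such as TGFB2. Of those with mixed signs, the adjusted p of the difference was 1e-07 for INHBA, 7.1e-08 for AXL, 7.5e-08 for EMP1, 1.2e-06 for FLNC and 3e-05 for C3. Of those of 1 sign in every line, it was 3.5e-07 for DUSP6, 0.00054 for EGR1, 0.0007 for AREG, 0.0057 for NOP56, 0.0049 for EDIL3 and 0.018 for GABARAPL1. For EGFR, which was called in SCC1 alone, it was 0.00025.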

How the results depend on the processing

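No shared gene turned to the opposite shared direction under any alternative, which reuse of the same libraries made nearly certain beforehand. With flow cell as a term, 80 of the 255 higher and 216 of the 542 lower genes were still shared. Counts of shared genes (255 higher, 542 lower) that moved by over 1.5 times were 395 and 851 with day as a replicate block, 101 and 262 with flow cell as a term, 412 and 1541 with the GC trend removed, 6 and 13 with a log2 fold change of at least 1, and 1414 and 2539 when the joint call with 1 sign replaced the call in every line. The higher count was 127 when well measured meant 5 log2 CPM, and the lower count was 342 without scaling beyond the library total and 348 without treated SCC6 of flow cell E. The cause of these shifts was not tested. Genes whose change differed between lines numbered 9000 with the replicate block and 3080 with the flow cell. Among shared genes they numbered 741 with the block, 118 with the flow cell, 868 with the GC trend removed and 18 with a log2 fold change of at least 1. Joint counts were 713 and 391 with that size limit, and the lower count was 2729 without SCC1. Leaving out each library in turn gave joint counts of 4526 to 4900 and 3947 to 4224, shared counts of 172 to 315 and 366 to 636, and line differences in 4865 to 7252 genes, 236 to 432 of them shared. AXL reversed to 0.005 in the joint fit (adjusted p = 0.99) without SCC1. Among named genes the replicate block ended the joint calls of AXL and C3 and changed no other joint call. A term for the flow cell ended those of UBE2C, STAT2, IFIT2, DSC2, ERBB3, AXL and C3. Leaving out SCC6 ended those of CDH2, TGFBI, IFIT2, SLC7A5 and IGF1R. Leaving out SCC1 ended those of CCNE2, DSC2, SLC7A5, EGFR, ERBB3, AXL and C3, and leaving out SCC25 those of ERBB3, AXL and C3. Some of these settings also brought joint calls that the primary fit lacked. The lists cover only genes above the chosen level in every line.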
